A study of Homo sapiens with 4 samples.

Results

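The genes of cholesterol and fatty acid synthesis described here are 35 protein-coding genes of the 20046 that GENCODE 44 places on GRCh38. They were chosen by name for their place in the pathway, with earlier results of these data known, and the rule itself uses no measured value. A DNA loop was assigned to a gene when an anchor of the loop lay within 1 kb of the start site of any annotated transcript of that gene. By this rule 158 of the 77862 distinct loops listed in either condition belonged to the module, and 28 of the 35 genes had at least 1 of them. The loops were measured by POLR2A HiChIP-seq, in which chromatin is digested with MboI, ligated in place and then immunoprecipitated with an antibody against POLR2A, the largest subunit of RNAPII. A read pair from 2 ligated fragments is counted as a paired-end tag (PET) between them. The cells were HepG2, a line from a human hepatocellular carcinoma, grown with fetal bovine serum and not otherwise modified in either group. Mock-treated cells received water and the other group received 20 µM pyridostatin (PDS), a small molecule that binds G-quadruplex (G4) structures, both for 24 h and in 2 biological replicates. HepG2 is a single tumour line with gained chromosomes, so it stands for hepatocytes only within that limit.

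The authors combined the replicates into 1 loop list per condition, with a whole-number count of PETs for each loop. No spread between replicates can be had from such lists, so no test between conditions was possible, and intervals below are 95% intervals of counting error from the Wilson method. The lowest count in both lists was 3 PETs, and a loop that is missing from a list can have had up to 2 PETs there. The depth of the 4 libraries was not used here, so fewer contacts and fewer captured or sequenced fragments after PDS cannot be told apart. The whole mock list held 66417 loops and the whole PDS list 18778. For this reason values of the lipid genes are set beside the same values of the 34792 other loops with an anchor at a protein-coding promoter. The identity of the cells was checked at promoters of hepatocyte markers: all 6 had mock loops, with 191 PETs in the mock list and 46 in the PDS list, while 5 of 6 markers of other lineages had 41 and 6 PETs, so listed loops are not limited to lineage genes.

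Cholesterol is built from acetyl-CoA through mevalonate, isoprenoid units and squalene to lanosterol and the later sterols, and fatty acids are built from the same acetyl-CoA after its carboxylation to malonyl-CoA. The liver is a main site of both pathways. Both are switched on by the SREBP transcription factors, which are held in the endoplasmic reticulum by SCAP and INSIG proteins while sterols are plentiful, and which after release bind sterol regulatory elements (SREs) beside CCAAT boxes, bound by NF-Y, and GC boxes, bound by Sp1.

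The promoter sequences of some of the genes hold such elements as matches of letters. The stretches below run 5′ to 3′ on the strand of the gene from 200 bases upstream of the canonical start site to the base before the first annotated coding-gene exon, as RefSeq gives them for GRCh38. Capitals mark CCAAT boxes on either strand, written ATTGG where the box lies on the opposite strand, and in SREBF2 also the SRE-like sequence. MVK, MVD, MSMO1 and DHCR7 are shown as examples of genes whose loops are absent from the PDS list or weaker in it, SREBF2 because it encodes the regulator itself, and ACLY for the entry into fatty acid synthesis. All stretches shown hold a CCAAT box, while SREBF1, SCAP, ACACB and FADS1, also without a PDS loop, had none in the promoter window searched. The canonical start site of MVK shown here lies 2902 bp from the nearest anchor, so no MVK loop touches it. MVK lies at chr12:109573594-109573792 on the plus strand, MVD at chr16:88663162-88663291 on the minus strand, MSMO1 at chr4:165327469-165327666 on the plus strand, DHCR7 at chr11:71448436-71448593 on the minus strand, SREBF2 at chr22:41832905-41833104 on the plus strand and ACLY at chr17:41919023-41919151 on the minus strand.
MVK: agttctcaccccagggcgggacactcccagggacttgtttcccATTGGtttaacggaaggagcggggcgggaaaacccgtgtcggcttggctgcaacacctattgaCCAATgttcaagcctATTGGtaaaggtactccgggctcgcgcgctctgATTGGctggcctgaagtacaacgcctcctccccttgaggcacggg
MVD: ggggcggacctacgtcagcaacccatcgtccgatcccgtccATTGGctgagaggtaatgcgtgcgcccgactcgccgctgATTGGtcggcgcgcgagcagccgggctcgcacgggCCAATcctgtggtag
MSMO1: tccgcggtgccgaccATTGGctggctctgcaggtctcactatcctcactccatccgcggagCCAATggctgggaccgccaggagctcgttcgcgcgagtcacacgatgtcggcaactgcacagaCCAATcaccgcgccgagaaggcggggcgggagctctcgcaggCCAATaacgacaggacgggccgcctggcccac
DHCR7: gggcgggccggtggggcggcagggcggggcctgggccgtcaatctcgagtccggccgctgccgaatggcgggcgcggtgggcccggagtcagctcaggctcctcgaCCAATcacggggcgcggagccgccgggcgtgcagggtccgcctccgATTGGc
SREBF2: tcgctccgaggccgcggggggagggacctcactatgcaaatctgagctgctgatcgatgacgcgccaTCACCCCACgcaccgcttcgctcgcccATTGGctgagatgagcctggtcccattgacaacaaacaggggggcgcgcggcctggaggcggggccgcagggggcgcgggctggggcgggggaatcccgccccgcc
ACLY: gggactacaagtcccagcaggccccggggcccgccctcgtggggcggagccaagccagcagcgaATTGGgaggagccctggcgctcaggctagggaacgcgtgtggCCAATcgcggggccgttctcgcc

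The promoter table, which runs from 250 bases before to 50 bases after the start site, held 31 of the 35 genes, without DGAT2, FDFT1, FASN and SQLE. A CCAAT box on either strand was present in 19 of these 31 promoters (61.3%, interval 43.8 to 76.3%), against 36.6% of 15344 protein-coding promoters and 35.4% of the 9329 promoters of genes with a mock loop. By group, they were found in 5 of 6 promoters of the mevalonate and squalene steps, 7 of 8 of the sterol steps, 2 of 6 of the regulators, 1 of 4 of fatty acid synthesis, 3 of 5 of elongation and desaturation and 1 of 2 of glycerolipid assembly, and these differences between groups were not tested. A GC box, GGGCGG on either strand, stood in 28 of 31 promoters (90.3%, against 61.8% of all). The strict SRE-like sequence TCACNCCAC, searched on both strands, was found in SREBF2 alone, from position -133 relative to its start site, and in 1.17% of all promoters. The CCAAT box and the SRE-like sequence share no bases where both occur in SREBF2. These are matches of letters in a short window, and none of them was measured as a bound site.

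Because PDS binds G4 structures, predicted G4 motifs were also located, defined as 4 runs of 3 or more G on either strand with spacers of 1 to 7 bases between them. The motifs below lie upstream of start sites of genes described in the results, are written on the G-rich strand, and have the G runs in capitals. The ACACA motif lies upstream of a canonical start site that no ACACA loop touches, with the nearest anchor 17364 bp from that site.
CYB5R3: GGGcgcGGGGGcGGGGaccGGG
SREBF2: GGGGccgcaGGGGGcgcGGGctGGGG
SCAP: GGGccGGGccGGGccGGG
LPIN1: GGGGGcGGGGcaGGGGcGGGGG
MLXIPL: GGGGcctGGGacGGGGcGGGG
ACLY: GGGcGGGccccGGGGcctgctGGG
ACACA: GGGcGGGcGGGcGGG
DHCR7: GGGcccGGGcGGGccggtGGGG
They lie at chr22:42649440-42649461 (CYB5R3, plus strand of the chromosome), chr22:41833059-41833084 (SREBF2, plus), chr3:47476088-47476105 (SCAP, plus), chr2:11746574-11746595 (LPIN1, minus), chr7:73624610-73624630 (MLXIPL, plus), chr17:41919116-41919139 (ACLY, plus), chr17:37406974-37406988 (ACACA, plus) and chr11:71448578-71448599 (DHCR7, minus). Within 1 kb of any annotated start site, 32 of the 35 genes had such a motif (91.4%, interval 77.6 to 97.0%), against 76.7% of all protein-coding genes. That search covers more sequence in genes with more start sites. With the 5′ end of the gene record alone the share was 80.0% (64.1 to 90.0%), an interval that includes the 65.5% of all genes. In the shorter window of the promoter table the shares were 12 of 31 (38.7%) and 32.4%. G4 structures were not measured in the data used here.

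The promoter loops of the lipid genes were few after PDS treatment. The mock list held 145 of them with 563 PETs, and the PDS list held 21 with 73 PETs. The PDS/mock ratio was 0.145 for loops (interval 0.0920 to 0.228) and 0.130 for PETs (0.102 to 0.165). The other promoter loops numbered 30390 in the mock list and 7747 in the PDS list, a ratio of 0.255 (0.249 to 0.261), and their PETs had a ratio of 0.228 (0.225 to 0.231). In this setting the lipid genes had a lower ratio than other promoter loops by more than counting error, although loops that share an anchor are not independent and the 158 loops used 73 promoter anchors. In 8 of 13 other settings the interval of the loop ratio included the value of other promoter loops, so that the difference was within counting error. With loops of at least 20 kb the ratio was 0.183 (0.106 to 0.315) against 0.245, and with start sites limited to the 5′ end of each gene record it was 0.164 (0.0877 to 0.307) against 0.229. With at least 4 PETs it was 0.123 (0.0571 to 0.264) against 0.176, and with at least 5 PETs 0.0571 (0.0152 to 0.215) against 0.126. A window of 5 kb around start sites gave 0.186 (0.127 to 0.272) against 0.258, and anchors with no start site of another coding gene gave 0.164 (0.0999 to 0.268) against 0.255. Genes with fewer than 10 mock loops alone, a setting chosen after seeing the data, gave 0.178 (0.105 to 0.301) against 0.255, and the last of the 8 settings, which leaves out the chromosomes with extra copies, is given with the distances.

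**Figure D1:**
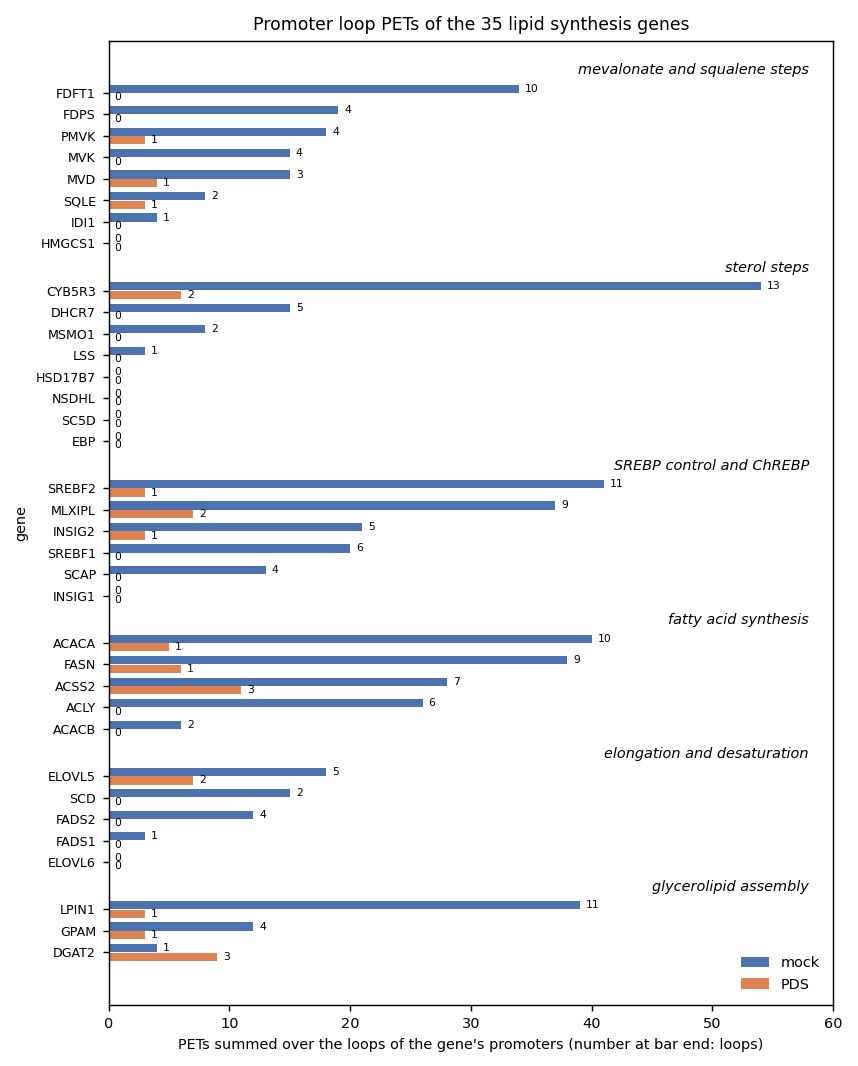
PETs summed over the promoter loops of each of the 35 genes (horizontal axis) in the mock list (blue) and in the PDS list (orange), ordered by role and by mock PETs, with the number of loops at the end of each bar. DGAT2 is the gene with more PETs in the PDS list than in the mock list (4 and 9), and 14 of the 28 genes with a mock loop have no PDS loop.

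At the level of genes, 28 of the 35 had a mock loop (80.0%), against 59.8% of all protein-coding genes. Of these 28, 14 had no loop in the PDS list, a share close to the 56.4% of all protein-coding genes with a mock loop. Genes with many mock loops seldom lost all of them in the series as a whole, so the count was also read by number of mock loops. Among the 8 lipid genes with 1 to 2 mock loops, 6 had none after PDS, against 73.1% of such genes. Among the 10 genes with 3 to 5 loops the count was 5, against 48.0%. It was 2 of 5 genes with 6 to 9 loops, against 20.2%, and 1 of 5 genes with 10 or more, against 5.08%. The last gene is FDFT1, which was singled out after its values were seen. The counts in the upper classes are too small to set apart from the background. Among genes with at least 12 mock PETs, 11 of 21 lipid genes had at most 10% of their mock PETs after PDS, against 34.9% of all such genes. This count was given no interval and was not matched by number of loops or PETs, so no difference is drawn from it.

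The first steps make mevalonate into squalene. In this group of 8 genes, 28 mock loops with 113 PETs faced 3 PDS loops with 10 PETs, and HMGCS1, which makes HMG-CoA, had no promoter loop in either list. FDFT1, squalene synthase on chromosome 8, had the most loops: 10 loops with 34 PETs in mock-treated cells and none in PDS-treated cells. Its loops started mostly from start sites inside the gene, since the canonical start site had only 1 of the 10. Of the 10, 3 joined FDFT1 to the promoter of CTSB, which encodes the lysosomal protease cathepsin B, over 40.3 to 59.6 kb, with 13 PETs together. Each of the 10 can have had up to 2 PETs after PDS, and the strongest had 5 PETs in mock-treated cells.

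FDPS, farnesyl diphosphate synthase, had 4 mock loops with 19 PETs and no PDS loop. The strongest, with 7 PETs, joined the FDPS promoter anchor at chr1:155305883-155313544 to an anchor at chr1:155267479-155274646 with a start site of CLK2, a kinase of splicing factors, 38.7 kb away. Another, with 6 PETs, reached an anchor with start sites of CLK2 and HCN3, an ion channel gene, over 31.4 kb. The PMVK gene, for phosphomevalonate kinase, had 4 mock loops with 18 PETs and 1 PDS loop with 3 PETs. None of its loops was in both lists: a pair of mock loops had 6 PETs each, and the PDS loop went to another anchor inside the gene. MVK, mevalonate kinase, had 4 mock loops with 15 PETs and none after PDS, and all 4 used start sites within the gene rather than the canonical one. The strongest MVK loop, with 6 PETs, spanned 168 kb to an lncRNA promoter inside FAM222A.

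MVD and SQLE were the genes of this group with a loop in both lists. MVD, mevalonate diphosphate decarboxylase, had 3 mock loops with 15 PETs and 1 PDS loop with 4 PETs. Its loop to the anchor of RNF166, a ubiquitin ligase gene, and SNAI3, a Snail family repressor gene, spanned 27.2 kb. That loop had 9 PETs in mock-treated cells, the highest count of any loop of the module, and 4 in PDS-treated cells. SQLE, squalene epoxidase, had 2 mock loops with 8 PETs and 1 PDS loop with 3 PETs. The loop found in both lists joined it to the promoter of ZNF572, a zinc finger gene, 26.2 kb upstream, and had 5 PETs in mock-treated and 3 in PDS-treated cells. The difference between 5 and 3 PETs is within counting error.

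Of the 8 genes of the sterol steps, 4 had loops, with 21 loops and 80 PETs in mock-treated cells and 2 loops with 6 PETs in PDS-treated cells. NSDHL, HSD17B7, EBP and SC5D, which act between lanosterol and cholesterol, had no promoter loop in either list, and the nearest anchor to their canonical start sites lay 9231 bp or more away. CYB5R3, a cytochrome b5 reductase that passes electrons to sterol and fatty acid oxidation steps, accounted for most of the group and had the most PETs of the module. It had 13 mock loops with 54 PETs, rank 264 among all protein-coding genes, and 2 PDS loops with 6 PETs. The gene has 25 start sites in 10 separate promoter windows, and its loops used 6 promoter anchors. The anchor at its canonical start site took part in 10 of the 13 loops. It also holds a start site of ATP5MGL, so these 10 loops cannot be assigned to CYB5R3 alone. The strongest CYB5R3 loop went from 8 PETs to none listed. The longest, from the shared anchor to the promoter of ARFGAP3, a regulator of Golgi transport, spanned 209 kb with 5 PETs and was also missing from the PDS list. A loop of 3 PETs inside the gene was in both lists with the same count.

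DHCR7, which makes cholesterol from 7-dehydrocholesterol, had 5 mock loops of 3 PETs each and no PDS loop. With so few PETs, the data cannot show whether any single DHCR7 loop was weakened. MSMO1, a C4-methyl sterol oxidase, had 2 mock loops with 8 PETs and LSS, lanosterol synthase, 1 with 3 PETs, and neither had a PDS loop. The 5 PETs of the stronger MSMO1 loop ran to an anchor inside KLHL2, 30.9 kb away.

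The regulators of the pathway had 35 mock loops with 132 PETs and, after PDS, 4 loops with 13 PETs. SREBF2, which encodes the SREBP that mainly drives cholesterol genes, had 11 mock loops with 41 PETs and 1 PDS loop with 3 PETs. From the promoter anchor of its canonical start site at chr22:41828897-41834101, 3 mock loops ran into the gene, the strongest with 7 PETs over 12.1 kb and another over 79.0 kb to the far end of the gene, and none of the 3 was listed after PDS. The loop found in both lists, with 3 PETs in each, joined internal start sites 7.70 kb apart. The anchor at the end of SREBF2, 27.6 kb wide and shared with SHISA8, held 7 of the 11 mock loops. Its loops can therefore not be assigned to SREBF2 alone.

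SREBF1, which encodes the SREBP forms that favour fatty acid genes, had 6 mock loops with 20 PETs and no PDS loop. Of the 6, 5 used anchors that also hold start sites of RAI1 or TOM1L2, its neighbours, and the strongest, with 5 PETs, joined both ends of SREBF1 over 32.0 kb. SCAP, the escort of the SREBPs, had 4 mock loops with 13 PETs and none after PDS. INSIG2, a retention protein, had 5 mock loops with 21 PETs and 1 PDS loop with 3 PETs that was not in the mock list, while INSIG1 had no loop in either list. MLXIPL, which encodes the glucose-responsive factor ChREBP, had 9 mock loops with 37 PETs and, after PDS, 2 loops with 7 PETs. Its loop to the promoter of VPS37D, an endosomal sorting gene, over 39.9 kb had 4 PETs in both lists. The MLXIPL loops with 7 PETs in mock-treated cells, to BUD23 and DNAJC30 over 56.6 kb and to an anchor outside genes over 29.4 kb, were not in the PDS list, although they started from the same promoter anchor at chr7:73620517-73632239.

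All 5 genes of fatty acid synthesis had mock loops, 34 in all with 138 PETs, and 3 of them had PDS loops, 5 in all with 22 PETs. ACLY, which splits citrate to cytosolic acetyl-CoA, had 6 mock loops with 26 PETs and no PDS loop. Its strongest loop, with 7 PETs, joined a pair of its own promoters 11.8 kb apart, and a loop of 5 PETs joined a start site near the end of the gene to the promoter of KLHL11, an adaptor of a ubiquitin ligase. ACSS2, which makes acetyl-CoA from acetate, had 7 mock loops with 28 PETs and, after PDS, 3 loops with 11 PETs, the most PDS PETs of any gene of the module. Only 1 of its loops, 27.6 kb long with 3 PETs in each list, was in both lists. This loop used the anchor at the canonical start site, which is shared with GGT7 and took part in 5 of the 7 mock loops. The other ACSS2 loops after PDS had 4 PETs each and were absent from the mock list.

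ACACA, acetyl-CoA carboxylase 1 and the committed step of the pathway, had 10 mock loops with 40 PETs and 1 PDS loop with 5 PETs. None of these loops touched the canonical start site, whose nearest anchor lay 17364 bp away, and most lay within the gene. Among the 8 loops of the module found in both lists, that of ACACA was the single one with more PETs after treatment, 3 in mock-treated and 5 in PDS-treated cells over 11.0 kb, a difference within counting error. The strongest ACACA mock loop, with 7 PETs over 16.6 kb, shared an anchor with it and was not in the PDS list. ACACB, acetyl-CoA carboxylase 2, had 2 mock loops of 3 PETs and none after PDS.

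FASN, fatty acid synthase, had 9 mock loops with 38 PETs and 1 PDS loop with 6 PETs. All of them used 1 anchor, chr17:82072664-82108295, which is 35.6 kb wide, the widest of the module, covers the whole gene and also holds a start site of CCDC57. The FASN loop to DUS1L, a tRNA dihydrouridine synthase gene, 24.6 kb away had 6 PETs in mock-treated and 6 in PDS-treated cells, the highest count of the module after PDS. The loop of 7 PETs to the far promoter of CCDC57 was not in the PDS list. Of the 9 mock loops, 7 reached the promoter of another protein-coding gene in this gene-dense stretch of chromosome 17.

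Among the genes of elongation and desaturation, SCD, the stearoyl-CoA desaturase that makes oleate, had 2 mock loops, with 7 PETs to an upstream anchor 7.28 kb away and 8 PETs to an anchor inside the gene 10.2 kb away. Neither was listed after PDS. ELOVL5, an elongase of polyunsaturated fatty acids, had 5 mock loops with 18 PETs and, after PDS, 2 loops with 7 PETs, and the PDS loops went to upstream anchors that the mock list does not join to it. FADS1 and FADS2, the neighbouring delta-5 and delta-6 desaturases, shared an anchor and 1 loop of 3 PETs, and FADS2 had 3 further loops of 3 PETs. ELOVL6, an elongase of palmitate, had no promoter loop, although 3 mock loops had an anchor in its gene body.

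LPIN1, a phosphatidate phosphatase of glycerolipid assembly, had 11 mock loops with 39 PETs over 7 promoter anchors and 1 PDS loop with 3 PETs that was not among them. GPAM, which adds the first fatty acid to glycerol 3-phosphate, had 4 mock loops with 12 PETs and 1 PDS loop with 3 PETs, again not among them. DGAT2, which makes triglyceride, went the other way from 1 mock loop with 4 PETs to 3 PDS loops with 9 PETs. It falls outside the rule for genes given with values and was chosen after these values were seen. Its PET ratio of 2.25 has an interval of 0.735 to 6.89 that includes 1, and 2.28% of all protein-coding genes with a mock loop had more PETs in the PDS list. This group as a whole had 16 mock loops and 5 PDS loops, a ratio of 0.312 (0.119 to 0.821), and no loop in both lists.

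Across the 6 groups the loop ratio ran from 0.0952 in the sterol steps to 0.312 in glycerolipid assembly, and the intervals of all 6 overlapped. PETs per gene are not a rate, since genes with more start sites had more windows in which a loop could be counted, from 1 start site in SCD and PMVK to 25 in CYB5R3. Of the 73 promoter anchors, 14 also held a start site window of another coding gene, so loops there cannot be assigned to 1 gene alone.

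Loops listed in both conditions allow a comparison at single loops. Of the 145 mock loops, 8 were also in the PDS list (5.52%, interval 2.82 to 10.5%) and 137 were not (94.5%, against 89.0% of all mock loops with a protein-coding promoter anchor). Of the other promoter loops, 11.0% were in both lists (10.7 to 11.4%). In 11 of 15 other settings the interval of the lipid genes included the share of other promoter loops in that setting. The setting of identical anchors, counted among the 15, repeats the main calculation. Loops with more mock PETs were found again more often among other promoter loops, so the shares were also compared at like counts. At 3 mock PETs, 4 of 88 lipid loops were found again (4.55%), against 5.48% of other promoter loops. At 5 or more PETs it was 3 of 35 (8.57%, 2.96 to 22.4%), against 26.2% (25.1 to 27.3%), so that 32 of these 35 loops were missing after PDS, where the share was 73.9% over all promoter loops of that strength. If the lipid loops had been found again as often as other promoter loops with like mock PETs, 17 of them would have been in both lists. That number was 16.2 when loops on chromosomes 2, 6, 14, 16, 17 and 20 were counted apart from the rest. For both numbers, loops of 7 or more PETs were taken as 1 class. Among other promoter loops that class includes loops of 10 or more PETs, which the lipid genes lack. Both numbers are therefore likely too high, by an amount not measured.

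**Figure D2:**
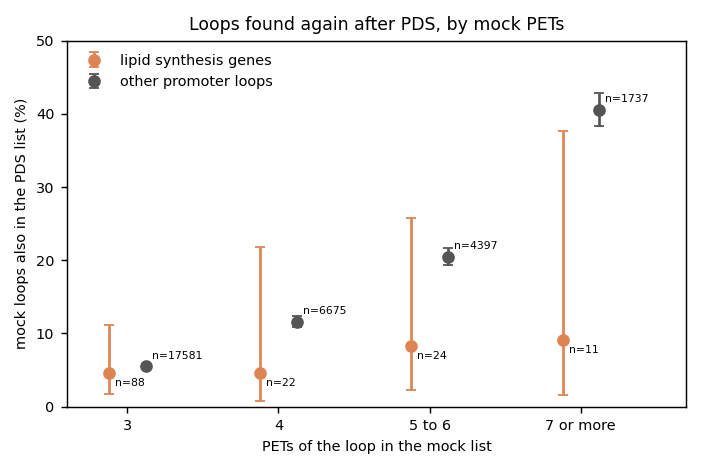
Share of mock loops that were also in the PDS list (vertical axis, %) by their PETs in the mock list (horizontal axis) for the lipid genes (orange) and for the other promoter loops (grey), with 95% Wilson intervals and the number of loops. The shares are close at 3 PETs (4.55% and 5.48%) and apart at 7 or more (9.09% and 40.6%), where the lipid genes have 11 loops. In this last class the other promoter loops include loops of 10 or more PETs, of which the lipid genes have none, so the classes are not matched there.

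These shares have limits. The lipid genes had no loop of 10 or more mock PETs, where 57.8% of 334 other promoter loops were found again, and with anchors widened by 5 kb on either side in the match the shares came close to each other, at 29.7% (22.8 to 37.5%) in the lipid genes and 32.2% in other promoter loops. Among the 8 loops in both lists, the count was lower after PDS in 2 (25.0%), equal in 5 (62.5%) and higher in 1 (12.5%). Of the other promoter loops in both lists, 58.7% were lower, 28.8% equal and 12.5% higher. Because a loop in both lists has at least 3 PETs in each, loops with 3 mock PETs could not be lower.

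The 13 loops of the lipid genes that were found only after PDS were weak. Of them, 10 had 3 PETs and the other 3 had 4 PETs, while a missing loop can have had up to 2 PETs in mock-treated cells. They made up 61.9% of the PDS loops of the module, against 56.8% in other promoter loops. They touched PMVK, GPAM, DGAT2, LPIN1, INSIG2, ACSS2, CYB5R3, ELOVL5 and MLXIPL.

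The loops were also divided by distance. Under 20 kb, 63 mock loops faced 6 PDS loops, a ratio of 0.0952 (0.0422 to 0.215), against 0.265 (0.255 to 0.274) in other promoter loops. From 20 to 100 kb, 69 loops faced 14, a ratio of 0.203 (0.115 to 0.358) that includes the 0.251 of other promoter loops. At 100 kb or more, 13 loops faced 1, a ratio of 0.0769 (0.0129 to 0.459), against 0.230. The intervals of the 3 classes overlap, so a difference between them was not shown. The median distance of mock loops was 24.6 kb in the lipid genes and 19.9 kb in other promoter loops. On chromosomes 2, 6, 14, 16, 17 and 20, of which HepG2 is known to carry extra copies, the ratio was 0.161 (0.0837 to 0.311), against 0.283 in other promoter loops. On the other chromosomes it was 0.133 (0.0714 to 0.246), against 0.226. The lipid genes were lower in both groups of chromosomes, but within each group alone the difference was inside counting error.

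**Figure D3:**
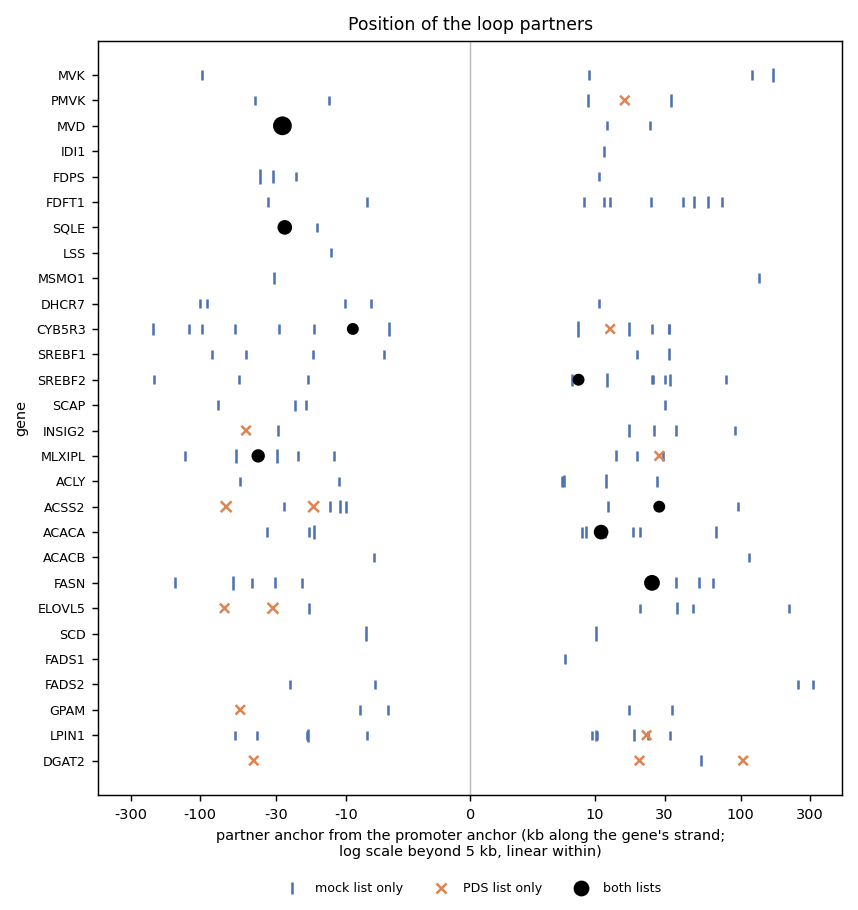
Position of the partner anchor of each loop relative to the promoter anchor of the gene, in kb along the gene's strand (horizontal axis, log scale beyond 5 kb), for the 28 genes with a loop. Blue strokes are loops of the mock list only, orange crosses of the PDS list only and black dots of both lists, with larger marks for more PETs, and partners lie on both sides of the promoters, 68 upstream and 78 downstream in the mock list.

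The partners of the promoters were mostly other promoters and the bodies of the same genes. In mock-treated cells, 34 of 145 loops joined a lipid gene to the promoter of another protein-coding gene (23.4%, 17.3 to 31.0%), against 13.3% (12.9 to 13.7%) of other promoter loops. A further 24 loops joined promoters of the same gene (16.6% against 14.3%), 42 ended inside the same gene (29.0% against 35.3%) and 8 at an lncRNA promoter (5.52% against 6.06%). Loops to anchors outside genes and promoters were 17 (11.7%), against 19.3%. The classes were not built alike: the own gene was a lipid gene for lipid loops, but any coding gene at the anchor for other loops. A loop between anchors that share a neighbour, such as CCDC57 beside FASN, thus counts as another gene among lipid loops only. This raises their share of other-gene promoters and lowers their same-gene shares, and the shares were not computed again under a like rule. Among the 34 loops, those concerned were 2 of FASN to CCDC57, 1 of ACSS2 to GGT7 and that of SREBF1 to TOM1L2 over 16.7 kb. The partner promoters belonged to 37 protein-coding genes, 36 of them in the mock list and 6 in the PDS list. None of the 37 was itself one of the 35 lipid genes, and no loop joined separate promoters of 2 different lipid genes. Most lipid genes lie far apart or on different chromosomes, and the longest loop of the module spanned 315 kb. This absence was thus largely set by gene positions and does not describe a choice of partners. Without CYB5R3, the gene with most mock loops, the share of promoter partners was 24.2%. With only lipid gene anchors up to 10 kb wide, a setting chosen after seeing the data that leaves out the FASN anchor, it was 33.3% (24.3 to 43.8%).

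**Figure D4:**
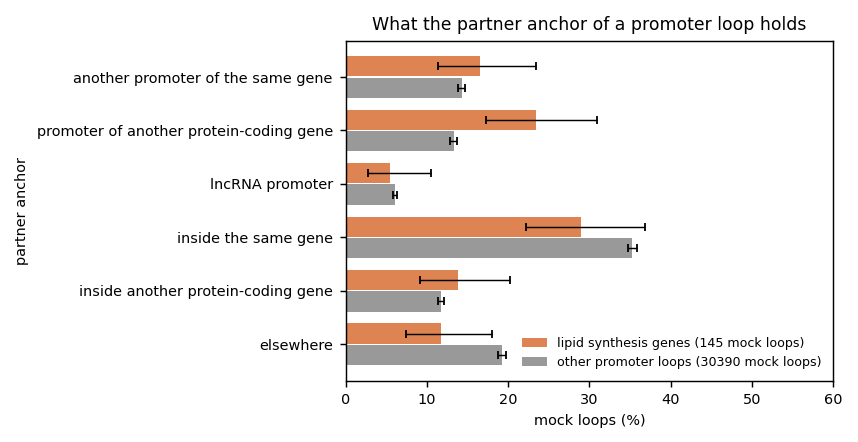
Share of mock loops (horizontal axis, %) by what the partner anchor holds, for the lipid genes (orange) and for other promoter loops (grey), with 95% Wilson intervals. Promoters of other protein-coding genes hold 23.4% of the lipid loops and 13.3% of the other promoter loops. The own gene was a lipid gene for lipid loops and any coding gene at the anchor for the others, which raises the first share.

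After PDS treatment, 5 of 21 loops had a promoter partner of another protein-coding gene (23.8%, 10.6 to 45.1%), against 11.6% in other promoter loops, classed by the same unlike rules. They were FASN with DUS1L, MLXIPL with VPS37D, MVD with RNF166 and SNAI3, SQLE with ZNF572, and DGAT2 with UVRAG, an autophagy gene, the last of them in the PDS list only. None of the 21 PDS loops of the module ended at an lncRNA promoter, which allows a share of up to 15.5%, against 6.05% in other promoter loops of the PDS list.

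The loops were also divided by predicted G4 motifs in their anchors. In the lipid genes, 83 mock loops had a motif in both anchors, 54 in 1 anchor and 8 in none. The PDS/mock ratio of loop numbers was 0.133 (0.0714 to 0.246) with a motif in both, 0.148 (0.0716 to 0.306) with a motif in 1 and 0.250 (0.0601 to 1.04) with none, and these intervals overlap. In other promoter loops the ratios were 0.264 (0.254 to 0.275), 0.245 (0.236 to 0.255) and 0.256 (0.241 to 0.272). Of their mock loops, 12.9% (12.3 to 13.5%) were found again with a motif in both anchors. With a motif in 1 anchor it was 9.67% (9.16 to 10.2%) and with none 9.70% (8.92 to 10.5%). In the lipid genes these shares were 6.02% (2.60 to 13.3%), 5.56% (1.91 to 15.1%) and 0% (0 to 32.4%). The shares were not matched by mock PETs, and a reason was not tested. A relation between motifs and the change in loops was not detectable at this depth in the lipid genes.

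A list of 32 further genes of lipid metabolism, such as acyl-CoA synthetases, acyltransferases, nuclear receptors and the site proteases that cut the SREBPs, was counted in the same way. Of these, 25 had a mock loop, 14 had a PDS loop and 11 had mock loops only. The mock list held 122 of their loops and the PDS list 36, a ratio of 0.295 (0.204 to 0.427), and 14.8% (9.54 to 22.1%) of the mock loops were found again. Both values lie near those of other promoter loops. Their intervals overlap those of the 35 synthesis genes, for the ratio at 0.204 to 0.228 and for the share at 9.54 to 10.5%. Such an overlap does not show that the values are alike. The PET ratio of the further genes was 0.243, against 0.228 in other promoter loops and 0.130 (0.102 to 0.165) in the synthesis genes. Its interval lay wholly above that of the synthesis genes, although PETs come in loops and are not independent. ACSL3, an acyl-CoA synthetase, held 27 of the 122 mock loops, 10 of the 36 PDS loops and 7 of the 18 loops in both lists. Both lists of genes were chosen by name, and nothing particular to either can be called from a single pair of loop lists.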

How the data were processed

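POLR2A HiChIP-seq was carried out in HepG2 cells under mock treatment or 20 µM PDS for 24 h, with 2 biological replicates per condition and 4 libraries. The authors aligned the reads to GRCh38, processed them with HiC-Pro 3.1.0 and deposited 1 list of loops per condition, which gives for each loop an unscaled count of PETs. The loop caller and the way replicates were combined are not given in the sources used here. The number of columns with per-sample values that could not be mapped was 0.

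The 35 genes and all gene lists were chosen with earlier results of these data known. Both lists were read whole, and coordinates are printed 1-based. Start sites are those of GENCODE 44, with a window of 1 kb. Loops were matched between lists by identical coordinates of both anchors. Anchors never overlap each other without being identical, so a match by an overlap of at least 1 bp would give the same result. Partner anchors were classed in the order same gene promoter, other protein-coding promoter, lncRNA promoter, same gene body, other gene body, elsewhere. For lipid loops the same gene is a lipid gene, and for other promoter loops it is any coding gene at the anchor. Values are given for genes with at least 5 mock loops, a loop of at least 6 PETs, a loop in both lists or PDS loops only. Others are given by count or in 1 sentence. Partner genes are named where the loop has at least 5 PETs or is in both lists, and any other partner named was picked after its values were seen.

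Ratios carry intervals derived from Wilson's method for the PDS part of the summed count, and shares carry Wilson intervals, all at 95% and for counting error only, since PETs and loops are not independent replicates. No test was made, because each condition is 1 combined list. Functions were tested on simulated data with known shares. The depth per library is unknown, so precision rests on the PETs alone, and loops of 3 PETs make up 59.9% of the mock list and 71.1% of the PDS list. The alternatives tried were PET minimum, start site window and type, distance, anchors and chromosomes left out, scaling, matching and motif definition. The analysis used scipy 1.17.1, pysam 0.24.0, samtools 1.23.1, pandas 2.3.3, numpy 2.4.6, matplotlib 3.10.9 and Python 3.11.15.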

Additional observations from a re-analysis of the deposited data

How the results depend on the processing

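The loop ratio, PET ratio and share of loops found again were lower in the lipid genes than in other promoter loops under all 45 settings computed for them, the main ones included, although the interval of the lipid genes included the value of other promoter loops in 8 of 13 alternatives for the loop ratio and in 11 of 15 for the share, and in none of 14 for the PET ratio, whose PETs come in loops and are not independent. Of 77 alternatives over all results, 68 stayed within the main interval or within 1.5 times the main count, and 9 moved. No loop ratio or PET ratio moved from below 1 to above 1, and shares and counts have no direction in this sense. This says little, since the whole PDS list is far shorter than the mock list. Whether the lipid genes lay below other promoter loops was fixed in advance for 2 of the settings. Identical anchors, counted among the 45, the 15 and the 68, repeats the main calculation. Scaling by the list totals, counted among the 45 and the 14, multiplies both sides by the same factor. With at least 5 PETs the loop ratio was 0.0571 (other promoter loops 0.126), the PET ratio 0.0521 (0.115) and the share of promoter partners 31.4%. With loops of at least 20 kb the PET ratio was 0.167 (0.229) and the share of promoter partners 36.6%. Dividing PETs by the list total gave a PET ratio of 0.493 (0.867), which only rescales both. Anchors widened by 5 kb gave 29.7% of loops found again (32.2%). Spacers of 1 to 12 bases gave a G4 motif in 97.1% of the genes (87.1% of all). Member anchors up to 10 kb wide, an alternative chosen after seeing the data, gave 33.3% promoter partners. The cause was not tested beyond what each setting's construction shows.

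Leaving out each replicate in turn and a replicate block were not run, since both need values per replicate. No paired analysis was possible because each list combines both replicates of its condition. Single loops are poorly determined at 3 PETs, and a gene with no PDS loop can still have had up to 2 PETs at each of its loops.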
